A study of Mus musculus with 11 samples.

Results

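RNA of bone marrow mesenchymal stromal cells was sequenced, and 34 genes of macrophages and monocytes were followed in it. The members were chosen by symbol, as rows of both deposited tables, and each had 1 row among the 19259 genes of the table for the ANXA2 knockout and the 19801 genes of the table for the ANXA5 knockout. They were split by role into 17 resident macrophage genes, 6 monocyte genes and 11 genes that macrophages and monocytes share with other leukocytes.

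The cells were primary cultures from bone marrow of C57/BL6 mice, given no treatment, in 3 groups: wild type (WT, 4 libraries), ANXA2 KO (3 libraries) and ANXA5 KO (4 libraries). Annexins A2 and A5 are calcium-dependent proteins that bind membrane phospholipids. The mice's age, the kind of knockout allele, the cells it was made in, the passage of the cultures and any sorting of the cells are not stated in these sources. Nor do the labels say that the libraries of a group came from separate animals or cultures, so p-values measure only the spread between these libraries, which may be technical. The ANXA2 KO libraries carry the numbers 1, 3 and 4 in their table and are called by them here. Each knockout was compared with WT within its own table, and both tables hold the same 4 WT libraries.

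The libraries held between 23304225 and 35654634 reads in genes. Anxa2 was at 28.6% of the WT mean in the ANXA2 KO, and Anxa5 was at 9.24% of it in the ANXA5 KO, so both targeted genes were low under their labels. Xist, the RNA that coats the inactive X chromosome, was at 1829 and 1997 normalised reads in WT libraries 1 and 2 and at 1.16 and 0.959 in WT libraries 3 and 4, and it also differed among the libraries of each knockout. Values of 0 stood only in WT library 4 of the ANXA2 table (188 genes) and in WT library 3 of the ANXA5 table (412 genes). Each listed gene had at least 1 read in every other library of its table, so a marker at 0 in those could not be seen.

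Macrophages depend on the receptor Csf1r, whose ligands are Csf1 and Il34, and on the transcription factor PU.1, encoded by Spi1. Resident bone marrow macrophages clear dying cells and iron and are recognised by scavenger receptors, complement component C1q and the haemoglobin receptor Cd163, while circulating monocytes carry Ccr2 or Cx3cr1. Cultures of adherent bone marrow cells are known to carry such haematopoietic cells beside the stromal cells. In bulk RNA, fewer cells of a type and less RNA per cell cannot be told apart.

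The promoters of 4 members are shown. Ctss and Cd68 were 2 of the 9 members higher in all ANXA5 KO libraries than in any WT library. Of these 9, Cd68 had the smallest log2 fold change, at 0.37. Mpeg1 had the largest difference in both knockouts, and Cd163 was the only member lower in all ANXA2 KO libraries than in any WT library. The 4 were picked after those values were seen and do not stand for the other members. The sequences are RefSeq's, on build GRCm38.p6, from 250 bases before to 50 bases after the transcription start, each read 5′ to 3′ along its gene. The positions are chr3:95526536-95526835 on the plus strand for Ctss, chr11:69666121-69666420 on the minus strand for Cd68, chr19:12460520-12460819 on the plus strand for Mpeg1 and chr6:124304401-124304700 on the plus strand for Cd163. Capitals mark GAGGAA on either strand (read as TTCCTC where it lies on the other strand), the core letters found in many sites of PU.1 and other ETS factors.
Ctss: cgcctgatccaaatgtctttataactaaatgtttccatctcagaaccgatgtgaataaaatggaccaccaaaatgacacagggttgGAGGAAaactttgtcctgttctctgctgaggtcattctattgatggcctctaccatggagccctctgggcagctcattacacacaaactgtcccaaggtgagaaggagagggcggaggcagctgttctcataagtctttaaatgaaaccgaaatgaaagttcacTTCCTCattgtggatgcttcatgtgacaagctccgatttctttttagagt
Cd68: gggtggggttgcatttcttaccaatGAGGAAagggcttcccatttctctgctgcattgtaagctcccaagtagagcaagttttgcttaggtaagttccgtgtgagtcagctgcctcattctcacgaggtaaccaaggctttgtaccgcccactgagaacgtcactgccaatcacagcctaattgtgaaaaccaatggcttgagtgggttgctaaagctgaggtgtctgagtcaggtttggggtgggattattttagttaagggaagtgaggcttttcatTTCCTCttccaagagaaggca
Mpeg1: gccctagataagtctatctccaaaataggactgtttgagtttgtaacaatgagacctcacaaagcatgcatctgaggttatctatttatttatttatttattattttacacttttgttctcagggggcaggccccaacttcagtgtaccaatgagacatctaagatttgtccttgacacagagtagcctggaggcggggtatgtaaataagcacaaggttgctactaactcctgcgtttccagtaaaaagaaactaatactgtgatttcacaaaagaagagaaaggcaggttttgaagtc
Cd163: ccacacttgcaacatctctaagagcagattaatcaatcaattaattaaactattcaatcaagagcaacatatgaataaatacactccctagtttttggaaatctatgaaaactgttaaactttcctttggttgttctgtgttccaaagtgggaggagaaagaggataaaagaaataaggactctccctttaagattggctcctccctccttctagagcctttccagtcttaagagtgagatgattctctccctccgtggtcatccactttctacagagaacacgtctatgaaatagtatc

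The motif stood at 2 positions in the Ctss promoter and at 2 in that of Cd68, and it was not found in these windows of Mpeg1 and Cd163. Among other members without overlap in the ANXA5 KO, C1qc, Fcgr1 and Laptm5 held it at 1 position, and Ly86 did not hold it. A link between the motif and the differences was not tested. Of the 34 members, 26 had a promoter in the RefSeq table, and 17 of these (65.38%) held the motif in at least 1 promoter. Of all 27025 genes in that table, 31.25% did. A match describes letters and is no binding site by itself. Adgre1, C1qa, Cd14, Csf1r, Itgb2, Msr1, Spi1 and Tyrobp had no entry there.

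Levels between genes can be compared only per length, here as RPKM (reads per kilobase of exon, scaled to the total reads of the library) in the 4 WT libraries. On that scale Lyz2, which encodes lysozyme, was highest among the members at 2160 ± 439 (SD, n = 4), followed by the lipopolysaccharide co-receptor Cd14 at 199.98 ± 23.4. The signalling adaptors Tyrobp and Fcer1g were at 188 ± 56.2 and 108 ± 27.4, which is within the spread of Cd14 for Tyrobp but not for Fcer1g. These are genes of monocytes, macrophages and granulocytes alike. Next in order came the integrin chain Itgb2 at 88.5 ± 12.2 and the lysosomal membrane protein Laptm5 at 88.3 ± 10.999, which did not differ beyond their spread, and then Spi1 at 46.4 ± 10.3. Fcgr3, Ctss, Lgmn and Cd68 followed at 39.4 ± 9.77, 38.3 ± 3.37, 37.3 ± 4.68 and 28.8 ± 2.84.

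Genes more particular to macrophages were lower on the same scale. The C1q chains C1qb, C1qa and C1qc were at 21.9 ± 1.41, 13.3 ± 1.41 and 9.47 ± 0.306, and Csf1r was at 14.0 ± 0.849. Adgre1, which encodes the F4/80 antigen, was at 4.67 ± 0.737, Mpeg1 at 2.95 ± 0.511 and Cd163 at 1.31 ± 0.149. Trem2, Ms4a7 and Vsig4 were below 0.5, and the scavenger receptor Marco was the lowest at 0.0704 ± 0.0583. For scale, the stromal genes Col1a1, Pdgfra, Cxcl12 and Lepr were at 1421 ± 688, 84.8 ± 7.16, 84.2 ± 2.57 and 23.0 ± 4.63 in the same libraries. The neutrophil genes Ngp and S100a9 were at 3876 ± 769 and 3820 ± 1301, so defining markers of stromal cells, macrophages, monocytes and neutrophils were all present in cultures labelled as mesenchymal stromal cells.

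**Figure D1:**
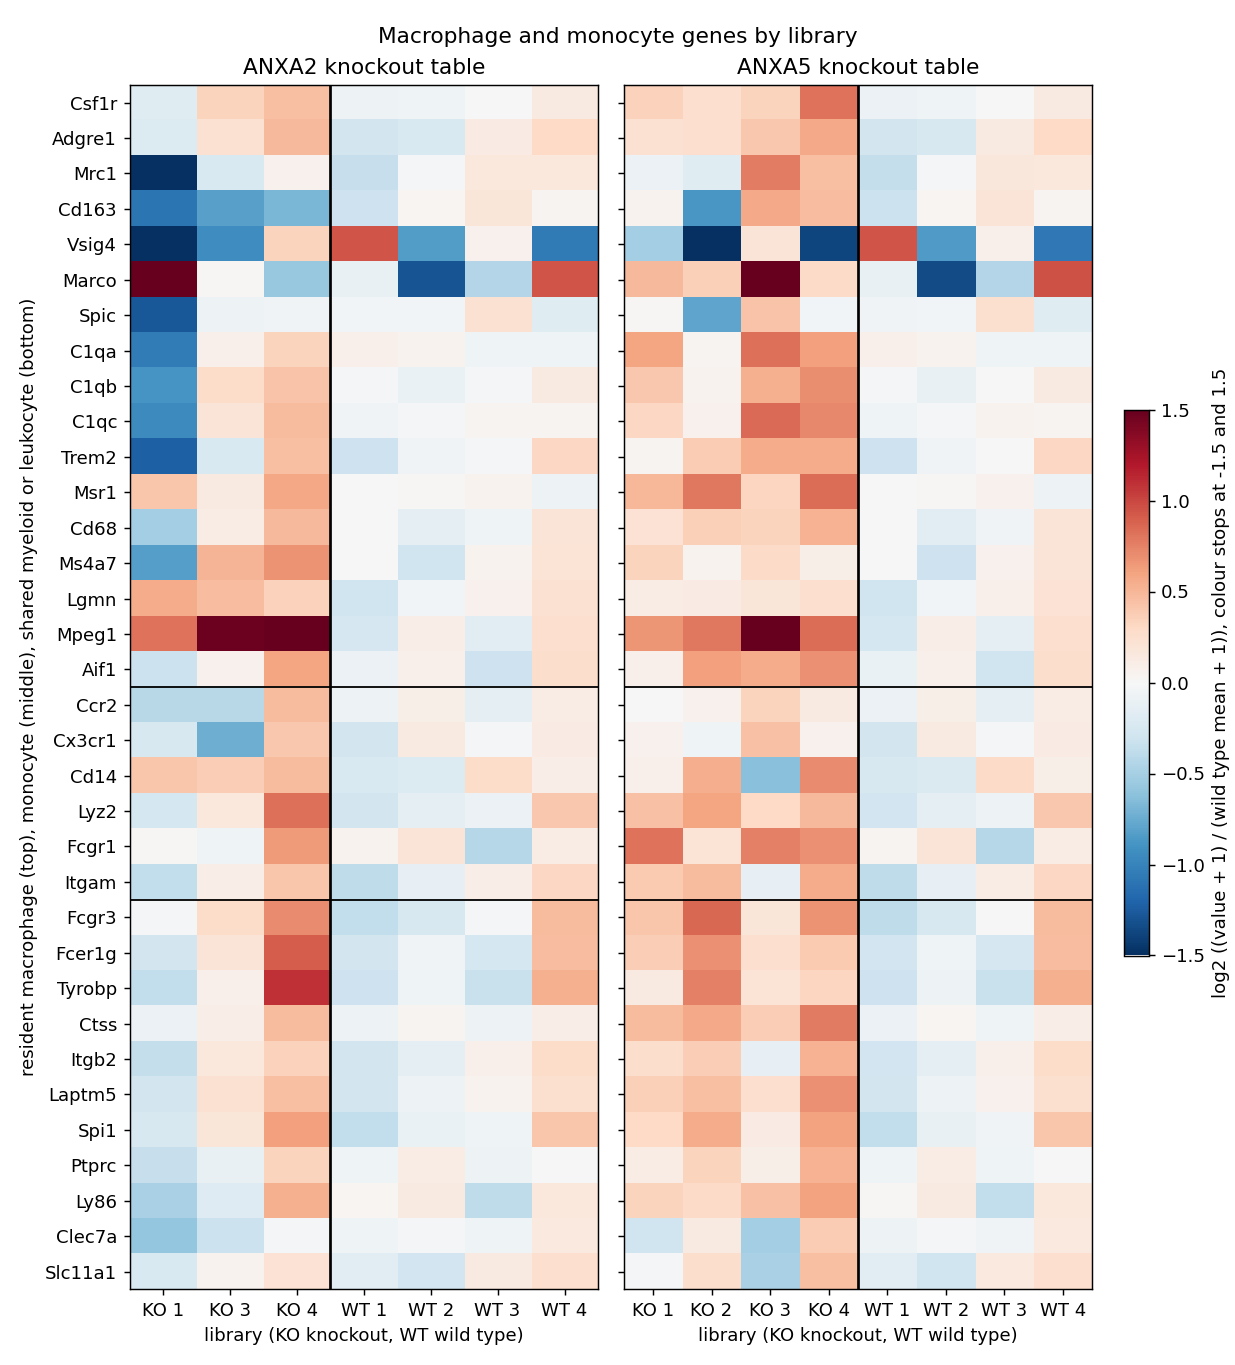
Each row is a member and each column a library of the table for the ANXA2 KO (left) or the ANXA5 KO (right), and colour gives the log2 ratio of the normalised reads plus 1 to the WT mean plus 1. ANXA2 KO library 1 is lowest of its group for 27 of 34 genes, and most rows are above the WT mean in all 4 ANXA5 KO libraries.

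In the ANXA2 KO the members as a group lay close to WT, and what stood out was the spread among the 3 knockout libraries. Mpeg1, Lgmn, Cd14 and Msr1 were higher in every knockout library than in any WT library, and Cd163 was lower. After a filter on low values (at least 10 normalised reads in 3 or more libraries), 33 of 34 members could be tested, all but Marco. With limma on log2(normalised reads + 1) and Benjamini-Hochberg adjustment over all 16123 genes tested, 0 members passed an adjusted p of 0.05, against 0.112% of all genes tested. At an unadjusted p under 0.05 there were 5 members (15.15% of those tested, against 8.69% of all genes), 4 of them higher and 1 lower. There were 8 without ANXA2 KO library 1 (24.2%, against 7.72% of all genes in that fit) and 8 without library 4 (24.2%, against 11.1%). edgeR and limma-voom also called 0 members, and DESeq2 on the recovered reads called Mpeg1 and Cd163. Of the members, 2 (the same genes) had an adjusted p under 0.05, in the authors' deposited table, against 0.593% of genes with a value there. Groups that did not overlap were seen for 4 members with the knockout higher (4.56% of all genes) and for 1 with it lower (4.63% of all genes).

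Mpeg1 encodes perforin-2, a pore-forming protein of macrophages that attacks engulfed bacteria. Its normalised reads were 574, 911 and 1279 in ANXA2 KO libraries 1, 3 and 4, and 273, 351, 293 and 390 in WT libraries 1 to 4. The lowest knockout library was above the highest WT library, and the knockout mean was 2.82 times the WT mean. The log2 fold change was 1.43 with a standard error of 0.25 (95% interval 0.86 to 2.01), with a limma adjusted p of 0.140. Over the alternatives its adjusted p ranged from 2.73e-05 to 0.506, and it passed 0.05 with DESeq2, with Xist as a covariate and without ANXA2 KO library 1. The authors' deposited table gives it a log2 fold change of 1.49 and an adjusted p of 1.75e-05.

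Cd163, the scavenger receptor for haemoglobin bound to haptoglobin, lay on the other side of WT. Knockout libraries 1, 3 and 4 held 85.1, 104 and 113 normalised reads of it, and the WT libraries held 147, 187, 208 and 189. All 3 knockout libraries were below the lowest WT library. The log2 fold change was -0.85 with a standard error of 0.18, with a limma adjusted p of 0.293 (0.006 to 0.879 over the alternatives). In the authors' deposited table it was -0.86, with an adjusted p of 0.00781.

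Both genes can also be set against Csf1r within each library, a ratio that no scaling of the library moves, chosen after the values were seen and given without a test. Mpeg1 was at 31.7% to 45.4% of Csf1r's normalised reads in the ANXA2 KO libraries and at 14.0% to 17.8% in WT. Cd163 was at 4.01% to 4.71% of Csf1r in the ANXA2 KO and at 7.55% to 10.1% in WT. Neither ratio overlapped between the groups, while Ctss was at 54.8% to 69.0% of Csf1r in the knockout and at 61.4% to 69.2% in WT.

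The resident macrophage genes of the ANXA2 KO, Mpeg1 and Cd163 included, lay on both sides of WT: 8 of the 16 tested were above 0 and 8 below, with a median log2 fold change of -0.01, against 0.02 over all genes tested. Lgmn, which encodes the lysosomal protease legumain, was at 3282, 3052 and 2832 normalised reads against 1806, 2168, 2323 and 2595 in WT, a log2 fold change of 0.47 (standard error 0.13, limma adjusted p = 0.485). Msr1, the class A scavenger receptor, was at 163, 134 and 184 against 122, 124, 127 and 116, a log2 fold change of 0.38 (limma adjusted p = 0.571). Neither gene's groups overlapped. The mannose receptor Mrc1 was at 127, 312 and 382 against 287, 359, 409 and 408, so that library 1 alone was outside the WT range.

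The C1q chains, which form the recognition unit of the classical complement pathway, showed the same split among ANXA2 KO libraries. C1qa was at 170, 372 and 444 normalised reads, C1qb at 331, 738 and 822, and C1qc at 240, 534 and 650 in libraries 1, 3 and 4. In WT the ranges were 337 to 372, 569 to 670 and 449 to 483. Library 1 was below every WT library for all 3 chains and library 4 above every WT library, and the log2 fold changes of -0.21, -0.06 and -0.10 had standard errors of 0.28 to 0.29.

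Spic, the transcription factor of iron-recycling macrophages, had the values 30.2, 70.2 and 71.4 in the ANXA2 KO against 65.2 to 87.3 in WT, and the lipid receptor Trem2 had 22.6, 46.2 and 74.5 against 43.4 to 67.2. Csf1r (1810, 2592 and 2816 against 1952 to 2267), Adgre1, the lysosomal glycoprotein Cd68, Ms4a7 and the actin-binding protein Aif1 were lowest in library 1 and highest in library 4 as well. The complement receptor Vsig4 was at 3.23 to 14.3 against 4.80 to 22.2 (log2 fold change -0.48, standard error 0.61). Marco, not tested, was at 16.2, 3.55 and 2.04 against 0.83 to 7.68.

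Of the 6 monocyte genes in the ANXA2 KO, 4 were above 0 and the median log2 fold change was 0.14. Cd14 was at 11919, 11544 and 12348 normalised reads against 7591, 7708, 10823 and 9512 in WT, without overlap, and its log2 fold change was 0.44 (standard error 0.15, limma adjusted p = 0.523). The chemokine receptors Ccr2 (754, 754 and 1396 against 909 to 1087) and Cx3cr1 (247, 176 and 389 against 242 to 322) had libraries on both sides of WT. Both lie on chromosome 9, as does Anxa2 itself. Lyz2, the high-affinity IgG receptor Fcgr1 and the integrin chain Itgam differed by 0.26, 0.21 and 0.07 on the log2 scale, each less than its standard error.

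Of the 11 shared genes in the ANXA2 KO, 8 were above 0, with a median log2 fold change of 0.14, and 0 had an unadjusted limma p under 0.05. Library 1 was lowest and library 4 highest of the knockout group for all 11. The beta-glucan receptor Clec7a was the furthest below WT, at 623, 746 and 924 normalised reads against 892, 916, 893 and 1033 (log2 fold change -0.30, standard error 0.14). Tyrobp ran from 2490 to 6843 in the knockout and from 2536 to 4641 in WT.

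Over the 34 members, library 4 was the highest ANXA2 KO library for 32 and library 1 the lowest for 27, and Lgmn and Marco ran the opposite way, highest in library 1 and lowest in library 4. The median coefficient of variation was 32.6% in the ANXA2 KO and 15.9% in WT. The mean log2 difference from WT over the members was -0.33, 0.07 and 0.47 in libraries 1, 3 and 4, and -0.11, -0.08, -0.02 and 0.20 in WT. Without library 1 the median log2 fold change of the members was 0.30, and without library 4 it was -0.11, against 0.07 with all 3. A list of 16 neutrophil genes stood in the same order at -0.44, 0.17 and 0.88, and its part in the spread of the members was not tested.

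**Figure D2:**
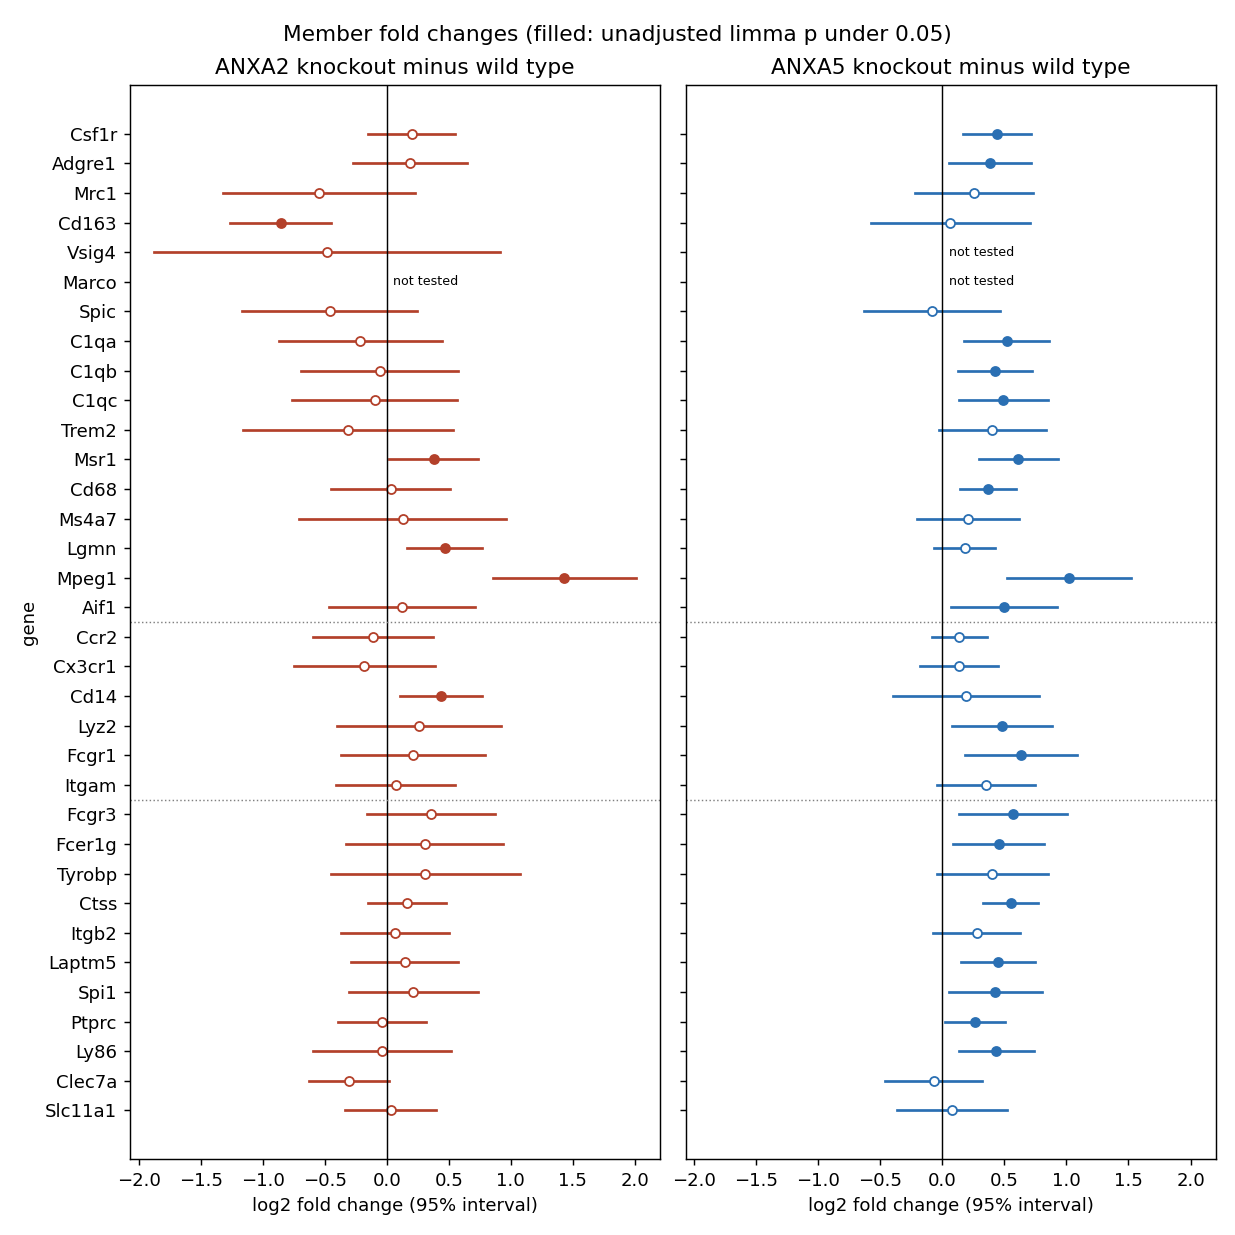
Points give each tested member's log2 fold change of knockout minus WT by limma, and lines its 95% interval; filled points have an unadjusted p under 0.05. In the ANXA2 KO 5 of 33 points are filled, with Mpeg1 at 1.43 and Cd163 at -0.85, and in the ANXA5 KO 18 of 32 are filled, all above 0.

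In the ANXA5 KO the members lay above WT across all 3 roles. Mpeg1, Msr1, Ctss, Fcgr1, Fcgr3, C1qa, C1qc, Aif1 and Csf1r were among those with the larger differences, between 0.44 and 1.02 on the log2 scale, and 0 members had non-overlapping groups with the knockout lower (3.36% of all genes). After the filter (4 or more libraries) 32 of 34 members could be tested, all but Marco and Vsig4. By limma with adjustment over all 16224 genes, 0 passed an adjusted p of 0.05, against 0.0308% of all genes tested. At an unadjusted p under 0.05 there were 18 members, all higher (56.25% of those tested, against 11.9% of all genes). edgeR and limma-voom called 0 members, and DESeq2 called Ctss, Mpeg1 and Msr1. The same 3 members had an adjusted p under 0.05 in the authors' deposited table, against 1.76% of genes with a value there. The knockout was higher without overlap for 9 members (3.01% of all genes): Csf1r, C1qc, Msr1, Cd68, Mpeg1, Fcgr1, Ctss, Laptm5 and Ly86. The median log2 fold change of the tested members was 0.40, against 0.01 over all genes tested, and 30 of 32 were above 0.

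Ctss encodes cathepsin S, the lysosomal protease that trims the invariant chain from MHC class II. It was at 2031, 2159, 1877 and 2504 normalised reads in ANXA5 KO libraries 1 to 4 and at 1374, 1492, 1393 and 1564 in WT. The lowest knockout library stood above the highest WT library. The log2 fold change was 0.55 with a standard error of 0.10, with a limma adjusted p of 0.185. The authors' deposited table gives 0.56, with an adjusted p of 0.000795.

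Mpeg1 was at 566, 623, 1193 and 644 normalised reads in the ANXA5 KO and at 299, 384, 324 and 427 in WT. Library 3 was far above the other knockout libraries, and the other 3 were still above every WT library. The knockout mean was 2.11 times the WT mean, and the log2 fold change was 1.02 with a standard error of 0.22 (limma adjusted p = 0.217, and 0.00415 to 0.532 over the alternatives). The authors' deposited table gives 1.08, with an adjusted p of 0.00367. Set against Csf1r in the same library, Mpeg1 was at 16.2% to 41.8% in the ANXA5 KO, a range that overlapped the 14.0% to 17.8% of WT.

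Msr1 was at 190, 232, 168 and 240 normalised reads against 133, 135, 140 and 127 in WT, again with no overlap, and its log2 fold change was 0.61 (standard error 0.14, limma adjusted p = 0.229). In the authors' deposited table it was 0.63, with an adjusted p of 0.0127. Csf1r, the receptor macrophages need to survive, was at 2863, 2695, 2856 and 3976 against 2134, 2155, 2270 and 2486, a log2 fold change of 0.44 (standard error 0.12, limma adjusted p = 0.277). In the GENCODE vM21 annotation exons of Csf1r overlap Hmgxb3 on the opposite strand, those of Cx3cr1 overlap Gm33858 on the opposite strand and those of Itgam overlap Gm49368 on the same strand. Whether the counting used the strand is not stated in these sources, so reads of these pairs cannot be told apart.

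Of the 15 resident macrophage genes tested in the ANXA5 KO, 14 were above 0, with a median log2 fold change of 0.40. C1qa was at 583, 399, 687 and 594 normalised reads against 370 to 407 in WT, and C1qb at 886, 695, 973 and 1083 against 622 to 734. Library 2 lay within the WT range for both chains, and the other 3 libraries were above it. C1qc was at 639, 538, 928 and 847 against 491 to 531. The log2 fold changes of the 3 chains were 0.52, 0.42 and 0.49, with limma adjusted p from 0.284 to 0.320.

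Cd68 was at 1184, 1303, 1285 and 1461 normalised reads against 912 to 1162 in WT (log2 fold change 0.37, standard error 0.10, limma adjusted p = 0.266). Adgre1, Aif1 and Trem2 had log2 fold changes of 0.38, 0.50 and 0.40, and their groups overlapped. The scavenging genes Cd163 and Mrc1 divided the knockout libraries instead. Cd163 was at 208, 109, 299 and 278 against 161 to 230, with library 2 below and libraries 3 and 4 above every WT library (log2 fold change 0.06, standard error 0.29). Mrc1 was at 379, 355, 683 and 549 against 314 to 451, and Spic at 82.5, 46.7, 109 and 79.4 against 71.5 to 96.5. Ms4a7 and Lgmn differed by 0.20 and 0.18 on the log2 scale. Vsig4 and Marco, not tested, were at 2.07 to 14.2 and 4.91 to 15.1 normalised reads in the knockout.

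All 6 monocyte genes were above 0 in the ANXA5 KO, with a median log2 fold change of 0.27. Fcgr1 was at 101, 66.4, 97.2 and 92.5 normalised reads against 59.1, 65.3, 42.4 and 62.1 in WT, with library 2 only just above the WT range (log2 fold change 0.63, standard error 0.20, limma adjusted p = 0.315). Lyz2 was at 108728, 120130, 98099 and 111939 against 65738, 72607, 75739 and 105626, where WT library 4 reached into the knockout range (0.48, limma adjusted p = 0.363). Lyz2 has a close copy, Lyz1, and reads shared by both could be counted for either or neither. Ccr2 and Cx3cr1, the receptors that tell monocyte classes apart, differed by 0.14 and 0.13. Cd14 ran from 6310 in library 3 to 15970 in library 4, on both sides of WT at 8302 to 11953. Itgam had a log2 fold change of 0.35 with a standard error of 0.18.

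Of the 11 shared genes, 10 were above 0 in the ANXA5 KO, 7 had an unadjusted limma p under 0.05 (63.6%, against 11.9% of all genes), and the median log2 fold change was 0.43. Laptm5 was at 12090, 12860, 11185 and 15162 normalised reads against 7774, 8921, 9799 and 11134 in WT, a log2 fold change of 0.45 (limma adjusted p = 0.284). Ly86, the partner of the receptor Cd180, was at 475, 459, 511 and 574 against 381, 414, 291 and 419 (0.43, limma adjusted p = 0.306). In both genes the lowest knockout library stood just above the highest WT library. The low-affinity IgG receptor Fcgr3, Fcer1g, Spi1 and the leukocyte phosphatase Ptprc had log2 fold changes of 0.57, 0.45, 0.43 and 0.26, and Tyrobp and Itgb2 0.40 and 0.27. Clec7a and the metal transporter Slc11a1 were at -0.07 and 0.07, with libraries 2 and 4 high and library 3 low in both.

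**Figure D3:**
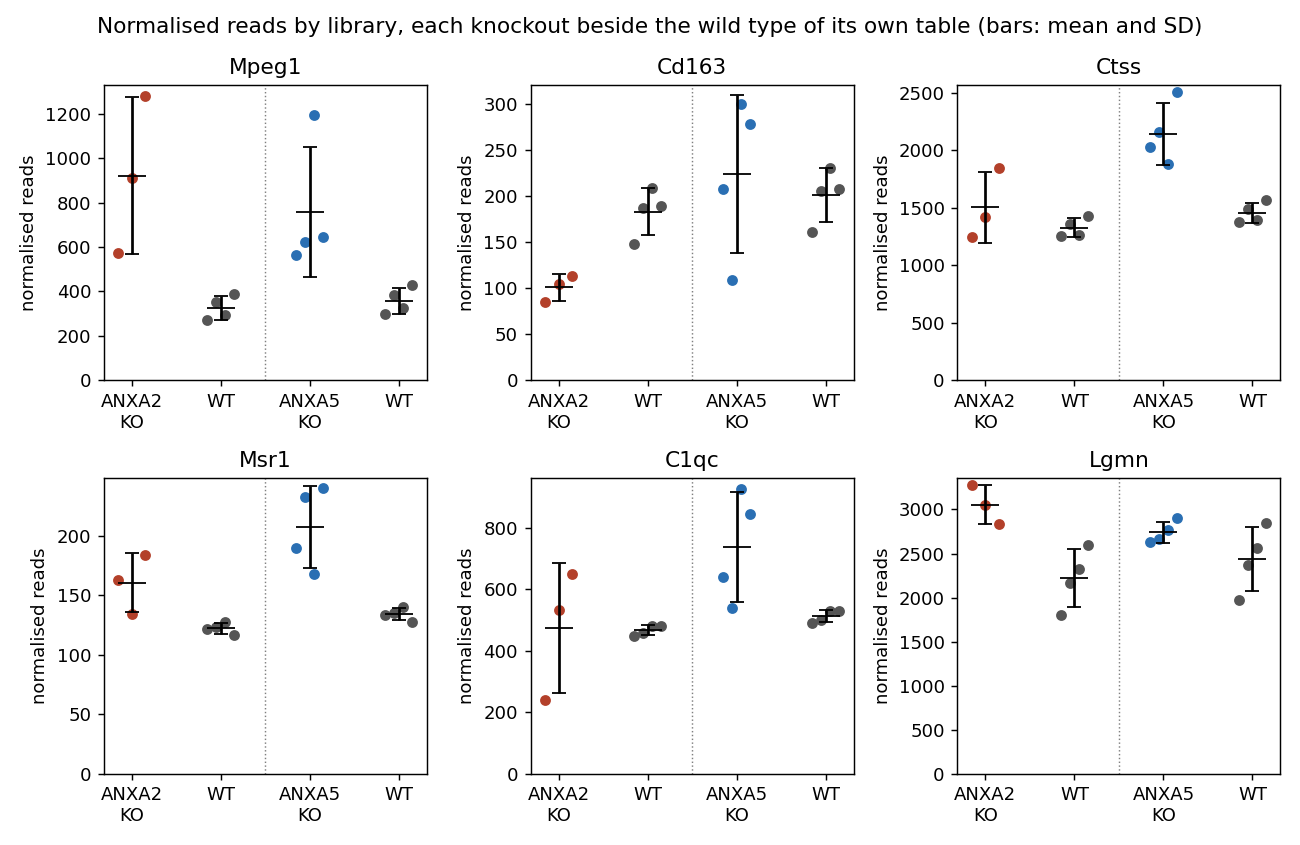
Points are the normalised reads of single libraries for 6 members, each knockout beside the WT libraries as scaled in its own table, and bars give the mean and SD. Mpeg1 is above WT in all 7 knockout libraries, and Cd163 is below WT in all 3 ANXA2 KO libraries and spans the WT range in the ANXA5 KO.

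The resident and shared genes ordered the ANXA5 KO libraries differently. Library 3 was the highest of the 4 for 9 of 17 resident macrophage genes (Mrc1, Cd163, Vsig4, Marco, Spic, C1qa, C1qc, Trem2 and Mpeg1) and the lowest for 9 of 11 shared genes. Library 2 was the lowest for 9 resident genes and the highest for Lyz2, Fcgr3, Fcer1g and Tyrobp. The mean log2 difference from WT was 0.26, 0.05, 0.66 and 0.45 in libraries 1 to 4 for the resident genes and 0.24, 0.50, 0.09 and 0.56 for the shared genes. They were above the WT values of their list (-0.14 to 0.14 and -0.19 to 0.30) in libraries 1, 3 and 4 for the resident genes and in libraries 2 and 4 for the shared genes. In WT, library 4 was the highest for 23 of 34 members and library 1 the lowest for 20.

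Markers of other cell types were measured in the same libraries. All 16 neutrophil genes were above 0 in the ANXA5 KO, with a median log2 fold change of 0.47. Of them 9 had an unadjusted limma p under 0.05, all higher. That is 56.25%, the same share as for the tested members, against 11.9% of all genes. Their summed normalised reads were 521477 to 733275 in the knockout and 375619 to 662052 in WT, and the mean log2 difference from WT was 0.45, 0.70, 0.29 and 0.55 in libraries 1 to 4. WT library 4, at 0.53, lay within that range. Neutrophils also express Lyz2, Itgam, Itgb2, Fcer1g, Tyrobp, Spi1, Ptprc and Laptm5, and the part of neutrophil RNA in these values was not tested. The 15 resident macrophage genes tested had log2 fold changes from -0.09 (Spic) to 1.02 (Mpeg1). Of 10 endothelial genes, 9 were above 0, with a median of 1.15 (scores of 0.62 to 1.43 in the knockout and -1.07 to 0.67 in WT). An unadjusted limma p under 0.05 was found for 7 higher and 1 lower (80%, against 11.9% of all genes). Of 10 erythroid genes, 9 were above 0, with a median of 0.55 and 1 (10%) with an unadjusted limma p under 0.05. The dendritic cell, T and NK cell, and B and plasma cell lists had medians of 0.11, 0.10 and 0.06. An unadjusted limma p under 0.05 was found for 1 (10%), 1 (10%) and 3 (30%) of their genes. Of the 3, 2 were higher and 1 lower. Of 5 megakaryocyte genes tested 4 were above 0 (median 0.19), 2 of them (40%) with such a p. All 5 mast cell and basophil genes tested were above 0 (median 0.22), 1 of them (20%) with such a p. Of 12 stromal genes, 6 were above 0, with a median of 0.05 and 1 (8.33%) with an unadjusted limma p under 0.05. All 16 neutrophil genes were above 0 in the ANXA2 KO too, with a median of 0.20, 0 had an unadjusted limma p under 0.05, and the sums were 318731 to 756477 against 343451 to 603761. In the ANXA2 KO 9 of 10 endothelial genes were above 0 (median 0.33) and 7 of 10 erythroid genes below it (median -0.45). An unadjusted limma p under 0.05 was found for 0 genes of either list. By limma 0 genes of all these lists passed an adjusted p of 0.05 in either comparison.

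**Figure D4:**
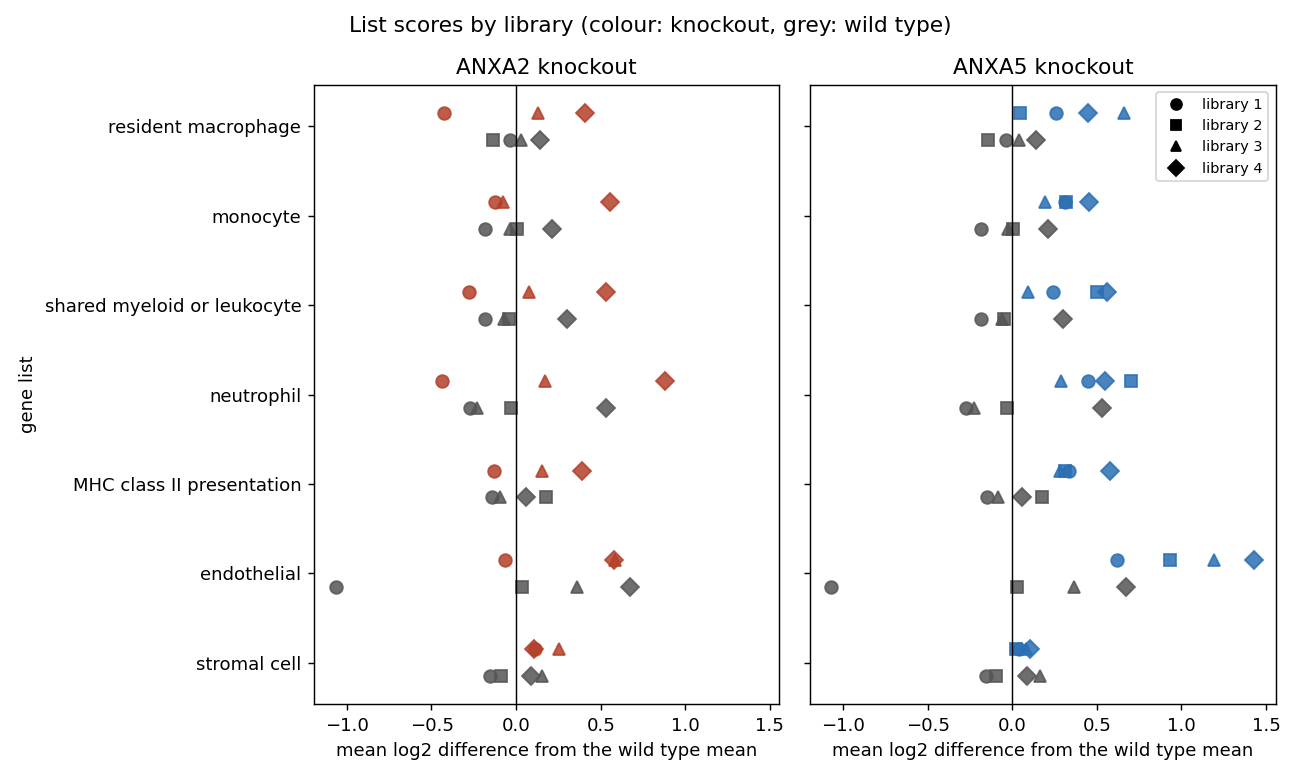
Each point is a library's mean log2 difference from the WT mean over the genes of a list; colour marks the knockout, grey WT and the shape the library number. In the ANXA2 KO the 3 member lists and the neutrophil list are lowest in library 1 and highest in library 4, and in the ANXA5 KO library 3 is highest for resident macrophage genes and lowest for the shared genes.

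The members were also compared between the knockouts, since both comparisons above share their WT libraries. For this the recovered reads of all 11 libraries were fitted together with edgeR, and 33 members were tested among 16787 genes. Of these members 0 passed an adjusted p of 0.05 for ANXA2 KO minus ANXA5 KO, against 0.262% of all genes, and 5 had an unadjusted p under 0.05 (15.15%, against 13.9% of all genes). Without ANXA2 KO library 4 the 5 became 17 (51.5%, against 21.5% of all genes in that fit). Without library 1 they became 2 (6.06%, against 7.10%), and without library 3 also 2 (6.06%, against 1840 of the 16787 genes). DESeq2 called Cd163 here. The members were lower in the ANXA2 KO for 27 of 33, with a median log2 difference of -0.27, against -0.01 over all genes tested. Markers of several other cell types lay the same way and in part further. Of 10 erythroid genes 9 were lower (median -1.03), and of 10 endothelial genes 9 (median -0.78). Of 8 osteoclast genes 7 were lower (median -0.63), and of 16 neutrophil genes 13 (median -0.18). An unadjusted edgeR p under 0.05 was found for 7 erythroid, 5 endothelial, 4 osteoclast (1 of them higher) and 1 neutrophil gene. These are 70%, 50%, 50% and 6.25% of the lists, against 13.9% of all genes. Stromal genes lay the other way, with 9 of 12 higher (median 0.15). So did 10 of 14 macrophage and monocyte transcription factors (median 0.17) and 10 of 16 macrophage growth factors and recruiting chemokines (median 0.26). The part of these lists in the members' difference was not tested.

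Cd163 had the widest difference between the knockouts among the 33 members tested. It was at 3.82 ± 0.546 (SD, n = 3) CPM (reads scaled to the library total) in the ANXA2 KO, 7.76 ± 2.97 (SD, n = 4) in the ANXA5 KO and 6.98 in WT on average. The log2 difference was -1.03, with an edgeR p of 0.00376 and adjusted p of 0.179 (0.0328 to 0.627 over the alternatives). The others with an unadjusted p under 0.05 were Ctss (-0.39), C1qa (-0.66) and Mrc1 (-0.72), all lower in the ANXA2 KO, and Lgmn (0.28), higher in it. Their edgeR adjusted p were 0.250 to 0.348. Mpeg1, above WT in both knockouts, differed between them by 0.40 (edgeR adjusted p = 0.548, and 0.326 to 0.890 over the alternatives).

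A further 43 macrophage and monocyte genes that are no members were examined in the same fits. Of the 42 tested in the ANXA2 KO, 30 were above 0 (median log2 fold change 0.12). An unadjusted limma p under 0.05 was found for 2 (4.76%, against 8.69% of all genes), Gpnmb at 0.50 and Clec4a1 at 0.63. The lowest limma adjusted p of this list was 0.518. Of the 42 in the ANXA5 KO, 38 were above 0 (median 0.37). An unadjusted limma p under 0.05 was found for 15 (35.7%, against 11.9% of all genes), all higher. They were led by the lysosomal exonuclease Pld4 at 0.43, the leukocyte adhesion protein Cd48 at 0.47 and Alox5ap, which leukotriene synthesis needs, at 0.61. Of 7 MHC class II presentation genes, all were above 0 in the ANXA5 KO, with a median of 0.36. Of the 7, 5 had an unadjusted limma p under 0.05 (71.4%, against 11.9% of all genes). Among them were the invariant chain Cd74 (15223 to 20233 normalised reads against 10586 to 12860 in WT) and the peptide exchanger H2-DMb1 (log2 fold change 0.41). For the ANXA2 KO 6 of these 7 were above 0, with a median of 0.12.

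Genes that recruit or feed macrophages were examined likewise. Of 16 tested in the ANXA2 KO, 11 were above 0 (median log2 fold change 0.25) and 4 had an unadjusted limma p under 0.05 (25%, against 8.69% of all genes). All 4 were higher: the chemokines Cx3cl1 (0.57), Ccl2 (0.75) and Ccl7 (0.78), and Csf1. The lowest limma adjusted p of the list was 0.471. Ccl7 was at 242, 87.6 and 122 CPM in libraries 1, 3 and 4 and at 58.3 to 114 in WT, so its groups overlapped. Csf1 was highest in ANXA2 KO library 1 at 13389 normalised reads and lowest in library 4 at 9379, the reverse of the order of most members. Tested in the ANXA5 KO were 15, of which 8 were above 0, with a median of 0.00 and a range of -0.97 to 0.89. An unadjusted limma p under 0.05 was found for 4 of them too (26.7%, against 11.9% of all genes), 3 higher and 1 lower (Csf3). Csf1 was at 7753 to 9507 against 7188 to 11871 in WT.

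Of 14 macrophage and monocyte transcription factors, 10 were above 0 in the ANXA2 KO, with a median of 0.26. An unadjusted limma p under 0.05 was found for 5 (35.7%, against 8.69% of all genes), all higher. The lowest limma adjusted p of the list was 0.518. It was led by Klf4 (1.10), Cebpb (0.61) and Klf2 (0.85), which stromal and endothelial cells also express. Klf4 and Klf2 overlapped WT, whose library 3 was at 531 and 782 CPM, against 519 and 641 in the lowest knockout library. In the ANXA5 KO 8 of 14 were above 0, with a median of 0.10. There 3 had an unadjusted limma p under 0.05 (21.4%, against 11.9% of all genes), 2 higher and 1 lower.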

How the data were processed

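Differences between bone marrow stromal cells of ANXA2 KO, ANXA5 KO and WT mice were taken from the deposited tables. Per the submitters' processing notes, build GRCm39 was used with STAR, Trim Galore, HTSeq and DESeq2, whose versions are not stated in these sources. The deposited values are a signal: read counts divided by a size factor per library, scaled separately in each table (0 sample columns were left out). Taking the step between low values in each library gave back whole reads for 100% of values within 0.001. The deposited log2 fold changes, their p-values and a test score are the authors'; the score, of opposite sign to the fold change in 100% of genes, was not used.

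The main test was limma 3.58.1 (trend) on log2(value + 1), for genes at 10 or more in 3 (ANXA2 KO) or 4 (ANXA5 KO) libraries, adjusted by Benjamini-Hochberg over all genes tested, with a threshold of 0.05. It called 18 genes in the ANXA2 KO and 5 in the ANXA5 KO. On the recovered reads edgeR 4.0.16 (quasi-likelihood) called 21 and 5, and DESeq2 1.42.0 called 104 and 282. The tests were tried on simulated data. All 34 members are named whatever their values; of other lists, the genes past the threshold and up to 3 with the smallest p, plus defining markers. Members and lists were chosen with earlier results of these data known. Lengths came from GENCODE vM21 (GRCm38), promoters from RefSeq. Alternatives were TMM scaling, voom, other pseudocounts and filters, Xist as a covariate, each library left out and the replicate block.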

Additional observations from a re-analysis of the deposited data

Results flagged for a closer look

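Among 102 groups of 4 libraries examined, 1 library stood apart from the other 3 in 4 groups (its gap to the nearest library, divided by the range of the group, was above Dixon's critical value). Chance flags about 1 in 20 groups. The same 4 WT libraries were counted 2 times per member, as scaled in each table, so the groups are not independent. Mpeg1 was at 1193 normalised reads in ANXA5 KO library 3, against 566 to 644 in the other 3. Marco was at 15.1 in the same library, against 4.91 to 5.77. Csf1r was at 3976 in ANXA5 KO library 4, against 2695 to 2863 in the others. Clec7a was at 1033 in WT library 4, as scaled in the ANXA2 KO table, against 892 to 916. As scaled in the ANXA5 KO table it was at 1133 against 976 to 1003 and was not flagged.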

How the results depend on the processing

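No member passed the threshold by limma, and the count of members called stayed at 0 in both knockouts and between them under TMM scaling, edgeR, voom, the other pseudocounts and the other filters, where each was run. In the ANXA2 KO the count was 2 with DESeq2 (Mpeg1 and Cd163), 1 with Xist as a covariate (Mpeg1) and 0 to 1 with each library left out, 1 being Mpeg1 without ANXA2 KO library 1. In the ANXA5 KO it was 3 with DESeq2 (Ctss, Mpeg1 and Msr1), and 0 with each library left out. Between the knockouts it was 1 with DESeq2 (Cd163) and 0 to 1 with each library left out, 1 being Cd163 without ANXA5 KO library 2. The median log2 fold change of the members with each library left out ran from -0.11 to 0.30 in the ANXA2 KO and from 0.31 to 0.49 in the ANXA5 KO. Over all alternatives 20 of 33 members in the ANXA2 KO, 4 of 32 in the ANXA5 KO and 7 of 33 between the knockouts changed sign at least once, each without passing the threshold. Over all genes DESeq2 called 104 against 18 in the ANXA2 KO, 282 against 5 in the ANXA5 KO and 398 against 44 between the knockouts; the ANXA2 KO count was 284 with Xist as a covariate, and the cause was not tested. With each library left out these counts over all genes ran from 8 to 16, from 4 to 32 (32 without WT library 4) and from 19 to 38.

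With the replicate block the ANXA5 KO count was 0 and the median 0.40, and 8 genes were called in all. No pairing by number was visible: deviations of same-numbered libraries had correlations of 0.049, -0.075, -0.252 and 0.067. Those of differently numbered libraries ran from -0.145 to 0.247. With 4 libraries a group this check cannot exclude a pairing. No paired analysis was possible for the ANXA2 KO because its column numbers (1, 3 and 4) do not match the numbers in the labels. With 3 or 4 libraries a group, and with Vsig4 and Marco at few reads, differences smaller than the library spread were not detectable.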

Other observations

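Osteoclasts descend from the same precursors as macrophages, and 8 of 9 listed osteoclast genes were tested in each knockout. In the ANXA2 KO the fusion receptor Dcstamp was at 1.02 to 3.55 normalised reads against 4.66 to 22.2 in WT, and the receptor Oscar at 2.16 to 7.14 against 7.68 to 24.0. These were the 2 of the 8 tested with groups that did not overlap and the knockout lower, against 4.63% of all genes. All knockout values of Dcstamp and Oscar were under the minimum of the filter on low values. Both genes were therefore tested only because WT libraries reached it. That selection favours a lower knockout, so this share cannot be weighed against that of all genes. The counts were low, and the limma adjusted p were 0.462 and 0.518. Ctsk, which encodes the collagen-degrading cathepsin K, was at 7884 to 10992 against 6676 to 8425. In the ANXA5 KO, Tnfrsf11a, which encodes the receptor RANK, was at 70.9 to 98.3 against 40.0 to 67.1 (log2 fold change 0.66, limma adjusted p = 0.299).

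Of 15 inflammatory and alternative activation genes tested, 8 were above 0 in the ANXA2 KO (median 0.02) and 6 in the ANXA5 KO (median -0.29). An unadjusted limma p under 0.05 was found for 2 in the ANXA2 KO (13.3%, against 8.69% of all genes), both higher. In the ANXA5 KO there were 5 (33.3%, against 11.9% of all genes), 2 higher and 3 lower. In the ANXA5 KO Nos2, the inducible nitric oxide synthase, was at 40.5 to 45.0 normalised reads against 4.63 to 23.1 in WT. The prostaglandin synthase Ptgs2 was at 1890 to 3296 against 3419 to 6634. Their log2 fold changes were 1.59 and -0.93, with limma adjusted p of 0.245 and 0.266. Il6 was at 690 to 1601 in the ANXA5 KO and at 1301 to 1996 in WT.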
